A study of Mus musculus with 18 samples.

Results

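Expression of 10 target genes of the transcription factor p53 was examined in the liver of male ICR mice aged 10 weeks. The genes were Mdm2, Cdkn1a, Ccng1, Phlda3, Trp53inp1, Zmat3, Bax, Eda2r, Aen and Bbc3. They were taken by symbol from an RNA-seq table of 19057 rows, and all 10 were present. The list was drawn up with earlier results of these libraries known. In particular, Mdm2 and Phlda3 had been chosen by their RPKM values in these livers before the list was made, so the levels of the 10 genes and the counts of calls among them are a description, nothing is read from those counts, and no p-value is printed for any of the 10. The table held 18 livers, 3 mice in each of 6 groups. Con mice were controls on a regular diet with saline, and AOS mice received alginate oligosaccharide, a seaweed-derived sugar chain, at 10 mg/kg. STZ mice received a single injection of streptozotocin, a DNA-alkylating toxin that destroys the insulin-producing beta cells of the pancreas, and served as a model of type 1 diabetes. STZ+AOS mice received both agents. A10-FMT and Con-FMT mice were injected with STZ and then received a fecal transplant, in A10-FMT from animals dosed with AOS (10 mg/kg) and in Con-FMT from control animals. AOS and STZ+AOS are known here only from the sample labels. The injection and the diabetes that followed it occurred in the same 4 groups, so their parts in any difference from Con cannot be told apart.

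p53 is kept at a low level by Mdm2, an E3 ubiquitin ligase that marks it for degradation, and DNA damage or other stress frees it to act as a transcription factor. Its targets stop the cell cycle, repair DNA, restrain growth signalling and, where damage is severe, start apoptosis. Mdm2 is itself a target, which closes a negative feedback loop. In the liver, p53 is known for limiting hepatocyte proliferation and for its part in lipid and glucose metabolism, and p21, the product of Cdkn1a, is its best known arrest gene in hepatocytes.

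p53 binds DNA as a tetramer at pairs of 10-base half-sites that share one consensus. The consensus is its own reverse complement, so a search of one strand covers both. It was searched in RefSeq promoter windows of 300 bases (250 before and 50 after the start site, GRCm38.p6), which were available for 8 of the 10 genes, all but Trp53inp1 and Zmat3. A match lay in 5 of these 8 genes, and in 9.55% of all 27025 genes with a window. The matches are shown because they meet the consensus in full near the start of genes whose levels are given below. Neighbouring letters that depart from it, even slightly, were not marked. They are written 5′ to 3′ on the strand of the gene, with each match in capitals.
Mdm2: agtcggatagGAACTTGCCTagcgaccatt
Cdkn1a: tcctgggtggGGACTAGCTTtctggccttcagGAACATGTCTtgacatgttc
Ccng1: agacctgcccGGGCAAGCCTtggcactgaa
Bax: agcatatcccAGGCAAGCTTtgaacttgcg
Aen: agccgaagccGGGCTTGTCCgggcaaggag
The stretches are chr10:117710925-117710954 on the minus strand for Mdm2, chr17:29090896-29090947 on the plus strand for Cdkn1a, chr11:40755452-40755481 on the minus strand for Ccng1, chr7:45467080-45467109 on the minus strand for Bax and chr7:78895927-78895956 on the plus strand for Aen. The first base of the match lay 186 bases before the start site in Mdm2, 185 in Ccng1 and 201 in Bax. Aen has 2 RefSeq starts, and its match lay 121 bases before the one and 10 bases after the other, inside the gene as GENCODE draws it. Cdkn1a also has 2 RefSeq starts. The window of the upstream start held 2 matches, 73 and 51 bases before that start and separated by 12 bases. The window of the downstream start held no match. The windows of Phlda3, Bbc3 and Eda2r held no match. The core word CATG was present in 4 of the 8 genes, against 64.8% of all genes, and CAAG or CTTG in 7 of 8, against 91.9%. A match of this length is a description of the letters, and binding was not measured.

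Values were RPKM, read counts divided by transcript length and by the mapped reads of the library, a scale on which levels of different genes can be compared. Between 9955 and 10409 genes reached 1 RPKM in a library, and the RPKM of a library summed to between 621121 and 806937. Hepatocyte markers were abundant in every liver, with a sum over 8 genes of at least 50690 RPKM. Differences were taken on the log2(RPKM + 1) scale with limma, which understates the change of genes near or below 1 RPKM. A gene entered the fit if 3 or more fitted libraries reached 1 RPKM, and a gene was called at a Benjamini-Hochberg adjusted p under 0.05. The 12 libraries of the groups other than AOS and STZ+AOS shared one fit (10602 genes), and comparisons with AOS groups used all 18 (10822 genes). In whole liver, fewer cells of a type and less RNA per cell cannot be told apart. The third STZ+AOS mouse stood apart. It held transcripts of pancreatic digestive enzymes, with Ctrb1 at 36.5 RPKM against at most 0.61 in the other 17 livers and Pnlip at 7.23 against at most 0.15. Of 5 such markers, 4 were higher than in any other liver, the exception being Cela1 (4.39 RPKM), so the results of STZ+AOS are also given without this mouse.

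In the livers of STZ-injected mice, 6 of the 10 genes were higher in every one of the 12 exposed livers than in any of the 6 livers without STZ. These were the feedback genes Mdm2 and Ccng1, the nuclease gene Aen, the RNA-binding protein gene Zmat3, the AKT repressor gene Phlda3 and the death receptor gene Eda2r. The same separation in the upward direction was seen in 1163 of the 10822 genes (10.7%), and in 155 genes (1.43%) in the downward direction. Phlda3, Zmat3 and Eda2r did not reach 1 RPKM in any liver without STZ, so they entered the table of tested genes only through the exposed groups and had to be higher there. The same 6 genes separated when each library was rescaled by its median ratio to a common reference, where 439 genes (4.06%) did so, and without the third STZ+AOS mouse. Both of these checks were added after the values were seen. The 4 other genes overlapped between exposed and unexposed livers.

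**Figure D1:**
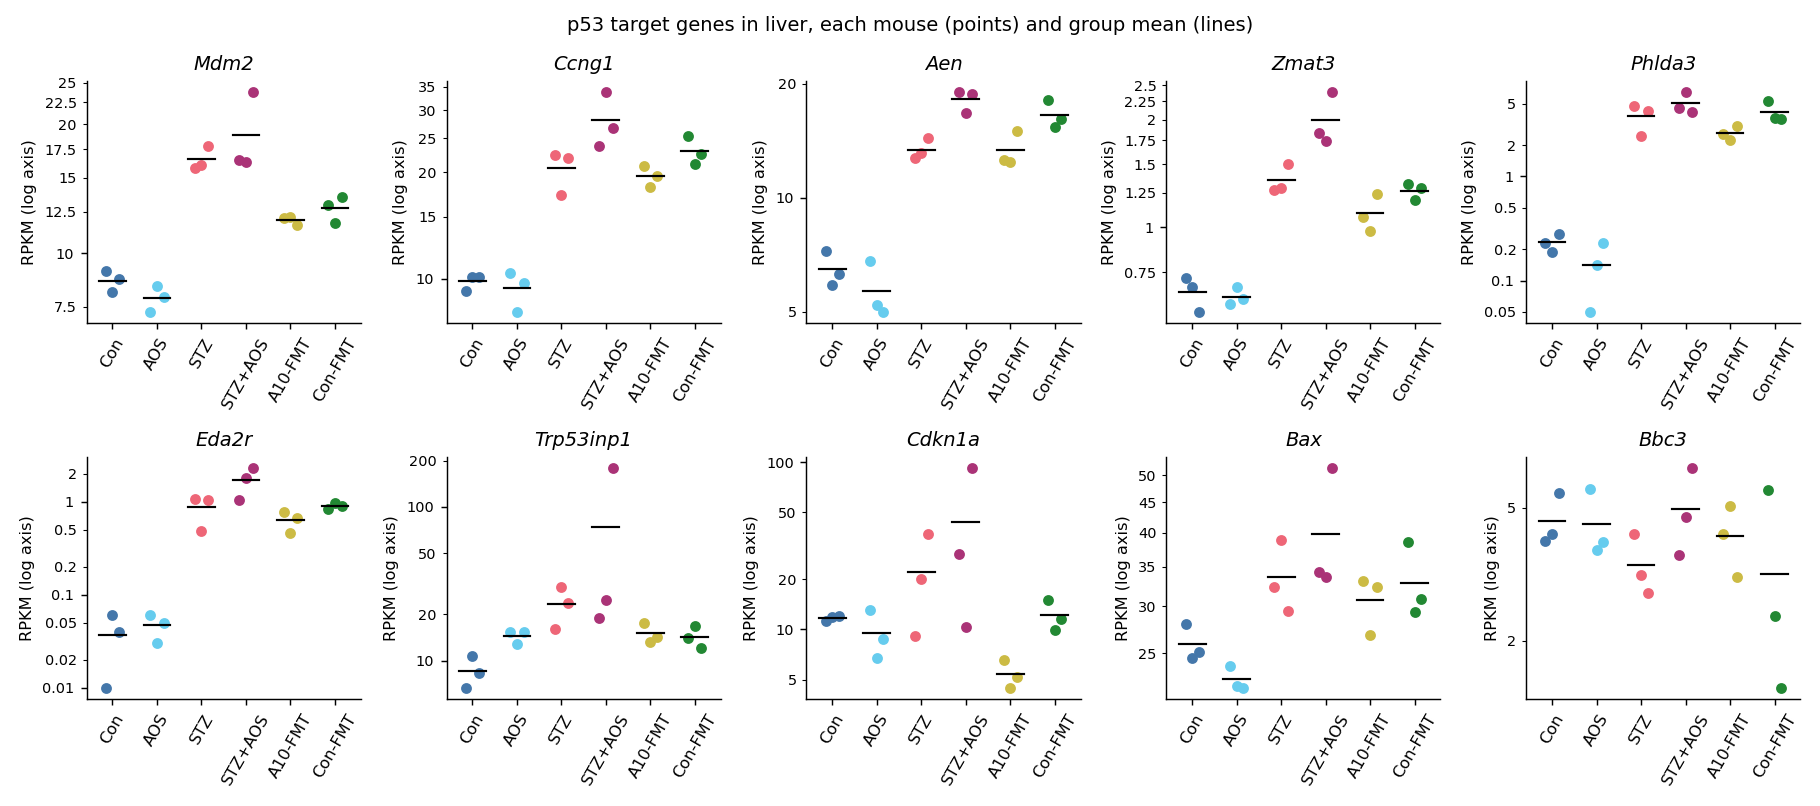
Expression of the 10 p53 target genes in each liver (points; RPKM, log axis with its own range in each panel) by group, with the mean of 3 mice as a line. Mdm2, Ccng1, Aen, Zmat3, Phlda3 and Eda2r are higher in all 12 STZ-exposed livers than in Con and AOS, whereas Cdkn1a, Trp53inp1, Bax and Bbc3 overlap.

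Among the feedback genes, Mdm2 (chr10:117688875-117710758, minus strand, protein coding) was expressed at 9.10, 8.11 and 8.71 RPKM in the 3 Con livers and at 7.30, 8.40 and 7.92 in AOS. It was found at 15.8, 16.1 and 17.8 RPKM in STZ and at 16.5, 16.4 and 23.8 in STZ+AOS. The transplanted mice lay between, with 12.1, 12.2 and 11.7 RPKM in A10-FMT and 12.95, 11.8 and 13.6 in Con-FMT. Thus the Mdm2 values fell into 3 bands that did not overlap. The lowest band held Con and AOS, the middle band both transplant groups, and the highest band STZ and STZ+AOS. Within each band the groups overlapped. The STZ mean of 16.6 ± 1.10 RPKM (SD, n = 3) was 1.92 times the Con mean of 8.64 ± 0.499. On the log2 scale the difference from Con was 0.87 (SE 0.083) for STZ, 0.43 for A10-FMT and 0.51 for Con-FMT with the same SE.

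Ccng1 encodes cyclin G1, which recruits a phosphatase to Mdm2 (chr11:40748552-40755311, minus strand). Its level was 9.25, 10.1 and 10.1 RPKM in Con and 10.4, 8.05 and 9.73 in AOS. In STZ it was 22.4, 17.3 and 22.03 RPKM, and in STZ+AOS 23.8, 33.8 and 26.8. In A10-FMT it was 20.9, 18.2 and 19.5 RPKM, and in Con-FMT 25.4, 21.1 and 22.6. Every exposed liver was therefore at 17.3 RPKM or more, and every other liver at 10.4 or less. Unlike Mdm2, Ccng1 showed no middle band, since both transplant groups overlapped with STZ. The highest A10-FMT liver was just below the lowest Con-FMT liver. The log2 difference from Con was 0.99 for STZ, 0.92 for A10-FMT and 1.15 for Con-FMT (SE 0.11 each).

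Phlda3 encodes a pleckstrin homology domain protein that competes with AKT for membrane lipids (chr1:135766119-135769136, plus strand). It was barely detected without STZ, at 0.23, 0.19 and 0.28 RPKM in Con and 0.05, 0.14 and 0.23 in AOS. Reads per gene were not counted, and with 2 decimals in the deposited values these 6 levels are coarse. It was at 4.77, 2.44 and 4.22 RPKM in STZ and 4.56, 6.46 and 4.13 in STZ+AOS. It was at 2.56, 2.22 and 3.02 RPKM in A10-FMT and 5.35, 3.61 and 3.54 in Con-FMT. The lowest exposed liver was thus at 2.22 RPKM and the highest unexposed liver at 0.28. The STZ mean was 16.3 times the Con mean, a ratio that rests on Con values of 0.28 RPKM or less. A10-FMT lay below Con-FMT with no overlap and overlapped with STZ. The log2(RPKM + 1) difference from Con was 1.93 for STZ, 1.54 for A10-FMT and 2.05 for Con-FMT (SE 0.19 each).

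Aen encodes an exonuclease that takes part in apoptosis (chr7:78895854-78911209, plus strand). It was expressed at 7.25, 5.90 and 6.30 RPKM in Con and 6.80, 5.23 and 5.0 in AOS. It was at 12.8, 13.1 and 14.4 RPKM in STZ and at 19.0, 16.7 and 18.8 in STZ+AOS. It was at 12.6, 12.4 and 15.03 RPKM in A10-FMT and at 18.1, 15.4 and 16.2 in Con-FMT. The exposed groups fell into 2 levels. A10-FMT and STZ overlapped at the lower level, Con-FMT and STZ+AOS overlapped at the higher one, and no liver of the lower level reached the higher one. The log2 difference from Con was 0.95 for STZ, 0.94 for A10-FMT and 1.23 for Con-FMT (SE 0.10 each).

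Zmat3 encodes a zinc finger protein that binds RNA and affects mRNA stability and splicing (chr3:32334792-32366014, minus strand). It was a low-level transcript, at 0.72, 0.68 and 0.58 RPKM in Con and 0.61, 0.68 and 0.63 in AOS. It was at 1.27, 1.29 and 1.5 RPKM in STZ and 1.84, 1.74 and 2.39 in STZ+AOS. It was at 1.07, 0.98 and 1.24 RPKM in A10-FMT and 1.32, 1.19 and 1.29 in Con-FMT. The STZ mean was 2.05 times the Con mean. A10-FMT lay below STZ, and STZ below STZ+AOS, without overlap, and Con-FMT overlapped with both STZ and A10-FMT.

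Eda2r encodes a receptor of the TNF receptor family (chrX:97333840-97377216, minus strand). It was between 0.01 and 0.06 RPKM in the 6 livers without STZ. It was at 1.07, 0.49 and 1.04 RPKM in STZ, 1.05, 1.81 and 2.32 in STZ+AOS, 0.78, 0.46 and 0.66 in A10-FMT and 0.83, 0.97 and 0.90 in Con-FMT. Thus the lowest exposed liver, at 0.46 RPKM, was above every unexposed liver. No fold is given, because the unexposed values are at the lower end of what the table can resolve. Only 2 of the 12 libraries of the 4-group fit reached 1 RPKM, so Eda2r was not tested there.

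Trp53inp1 encodes a stress-induced nuclear protein that enhances p53 activity and takes part in autophagy (chr4:11156431-11174379, plus strand). It was at 6.66, 10.7 and 8.28 RPKM in Con and at 15.3, 12.8 and 15.3 in AOS. It was at 16.1, 30.2 and 23.6 RPKM in STZ, at 17.6, 13.2 and 14.3 in A10-FMT and at 14.1, 16.7 and 12.1 in Con-FMT. In STZ+AOS it was at 19.1, 24.7 and 180 RPKM, the last value being the highest of all 18 livers. Con was the only group that lay below every liver of the other groups. AOS alone had levels in the range of the transplant groups, so this gene did not sort the livers by STZ. The log2 difference from Con was 1.33 for STZ, 0.76 for A10-FMT and 0.69 for Con-FMT (SE 0.22 each).

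Cdkn1a encodes p21, an inhibitor of cyclin-dependent kinases (chr17:29090976-29100727, plus strand). It was tightly grouped in Con, at 11.3, 11.9 and 12.1 RPKM, and ranged from 6.73 to 13.1 in AOS. In STZ it was at 9.12, 19.96 and 37.1 RPKM, and in STZ+AOS at 28.3, 10.4 and 92.5. In A10-FMT it was at 6.55, 4.49 and 5.23 RPKM, and in Con-FMT at 15.01, 9.92 and 11.6. The 3 A10-FMT livers were therefore the 3 lowest of all 18, and STZ and STZ+AOS each held one liver below the highest Con liver. The CV between mice was 3.79% in Con, 64.0% in STZ and 98.8% in STZ+AOS. The STZ mean was 1.88 times the Con mean, but the log2 difference of 0.65 was less than 2 times its SE of 0.36, and STZ overlapped with Con.

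**Figure D2:**
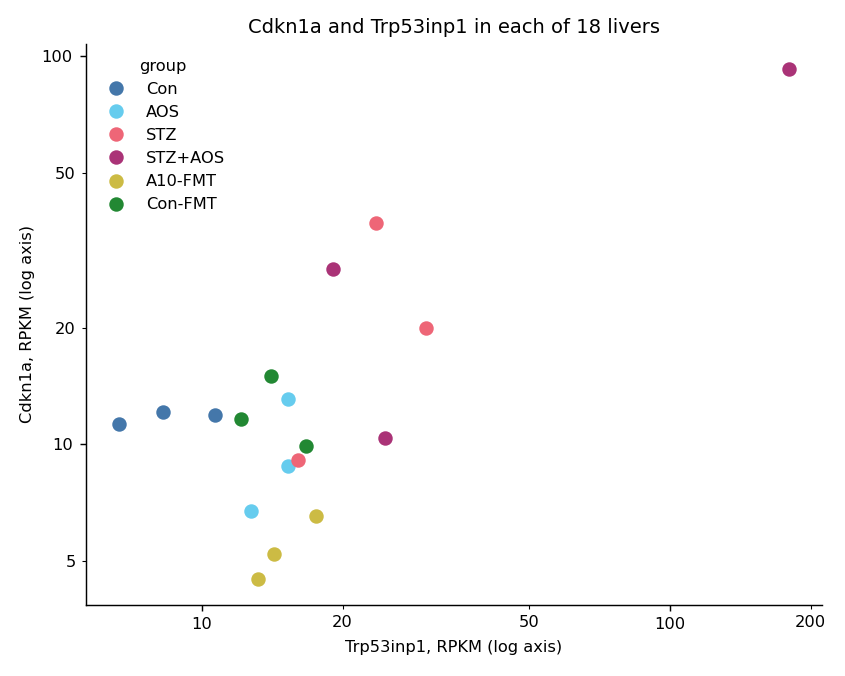
RPKM of Trp53inp1 (x, log axis) and Cdkn1a (y, log axis) in each of 18 livers, coloured by group. The third STZ+AOS mouse is highest for both genes (180 and 92.5 RPKM), and the 3 A10-FMT livers have the lowest Cdkn1a with Trp53inp1 between 13.2 and 17.6 RPKM.

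The last genes, Bax and Bbc3, belong to the Bcl-2 family. Bax, the pore-forming effector of the mitochondrial pathway (chr7:45461697-45466898, minus strand), was at 28.0, 24.5 and 25.2 RPKM in Con and 23.8, 22.03 and 21.9 in AOS. It was at 32.4, 38.9 and 29.5 RPKM in STZ, 34.3, 33.7 and 51.5 in STZ+AOS, 33.1, 26.8 and 32.3 in A10-FMT and 38.5, 29.3 and 30.8 in Con-FMT. All STZ livers were above all Con livers, by 1.30 times in the means, whereas A10-FMT overlapped with Con. Bbc3 encodes PUMA, a BH3-only activator of Bax (chr7:16308393-16318205, plus strand). It was at 3.97, 4.18 and 5.54 RPKM in Con, 4.18, 3.15 and 2.78 in STZ, 4.17, 5.05 and 3.10 in A10-FMT and 5.65, 2.38 and 1.45 in Con-FMT. It ranged from 3.74 to 5.69 RPKM in AOS and from 3.62 to 6.58 in STZ+AOS. Every group overlapped with every other group, and its log2 difference of STZ from Con was -0.35 (SE 0.30).

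In the comparison of STZ against Con, 6 of the 9 tested genes (Mdm2, Ccng1, Phlda3, Trp53inp1, Zmat3 and Aen) were called higher and none lower, beside 33.0% of all genes called higher and 5.52% lower. With all 6 groups in the fit the 6 called were Mdm2, Ccng1, Phlda3, Zmat3, Aen and Eda2r, and Trp53inp1 lost its call here and for both transplant groups against Con. The median log2 difference was 0.87 over the 9 genes and 0.21 over all genes. Non-overlap of the 3 STZ and 3 Con livers in the upward direction was seen in 7 of the 9 genes and in 40.8% of all genes. Of all calls, 3502 were higher and 585 lower. Under median-ratio scaling they were 1480 and 1391, and the median of all genes was -0.0097. Relative to that scale the differences of STZ from Con were 0.62 for Mdm2, 0.73 for Ccng1, 1.82 for Phlda3, 1.08 for Trp53inp1, 0.38 for Zmat3, 0.70 for Aen, 0.40 for Cdkn1a, 0.10 for Bax and -0.57 for Bbc3, and the same 6 genes were called. The sum of 5 exocrine pancreas markers, mostly Cela1, was 31.6 to 40.8 RPKM in Con and 2.96 to 8.77 in STZ. Prss2, Cpa1, Pnlip and Ctrb1 were each at most 0.61 RPKM in every liver of both groups. The difference in the sum is therefore one of Cela1 and does not show pancreatic tissue in Con. The sum of 7 macrophage markers was 62.8 to 94.5 RPKM in Con and 93.8 to 206 in STZ, and the part of either cell type in the differences was not tested. After transplants the macrophage sum ran from 49.1 to 140 RPKM with A10-FMT. With Con-FMT it ran from 73.8 to 123 RPKM, with a median of 114 beside 84.3 in Con.

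**Figure D3:**
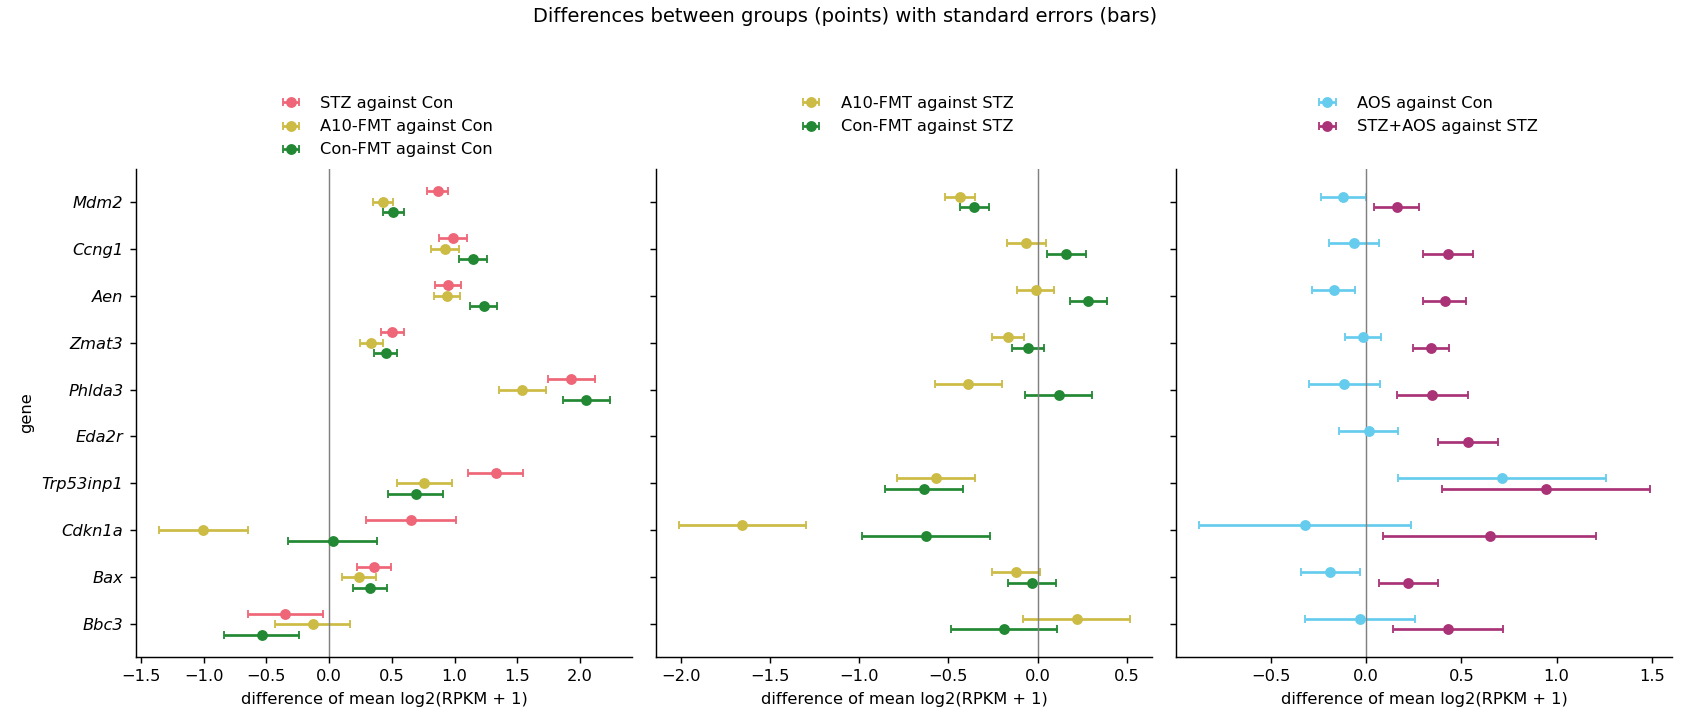
Differences between groups in mean log2(RPKM + 1) for the 10 genes (points) with standard errors (bars), against Con (left), against STZ for the transplant groups (middle) and for AOS (right). Each panel has its own horizontal range, comparisons in a panel can share a control group, and Eda2r was not tested in the left and middle panels. Phlda3 has the largest differences from Con (1.54 to 2.05), and Cdkn1a the largest difference between A10-FMT and STZ (-1.66).

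To ask whether the transplants were followed by a lower p53 target level, A10-FMT and Con-FMT were compared with the same STZ livers. With A10-FMT, 0 of the 9 genes were called, beside 0.226% of all genes (24 of 10602, with 2212 at an unadjusted p under 0.05 in limma). In the livers themselves, Mdm2, Cdkn1a and Zmat3 were lower in all 3 A10-FMT mice than in all 3 STZ mice, as were 13.9% of all genes. The log2 differences were -0.44 (SE 0.083) for Mdm2, -1.66 (SE 0.36) for Cdkn1a and -0.17 (SE 0.090) for Zmat3. Those of Ccng1 and Aen were -0.06 (SE 0.11) and -0.0089 (SE 0.10) and changed sign under median-ratio scaling. Leaving out the first or the third STZ mouse brought the calls to 2, Cdkn1a and Mdm2. The calls over all genes moved as well. They ran from 0 to 1343 with each mouse left out in turn, with 1343 of 10580 genes without the third STZ mouse. With Con-FMT, 0 of the 9 genes were called, beside 0.00943% of all genes (1 of 10602, with 2131 at an unadjusted p under 0.05 in limma). Mdm2 was lower in all 3 Con-FMT mice than in STZ, with a difference of -0.35, and Aen was higher, with a difference of 0.28 (SE 0.10). Without the third STZ mouse, 1 of these genes was called, Mdm2, beside 1636 of 10580 over all genes. The percentages of all genes with such non-overlap were 9.38% downward and 8.32% upward.

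Against Con, which shared its livers between the comparisons, 6 of the 9 genes were called higher in A10-FMT (beside 15.9% of all genes) and 6 of 9 in Con-FMT (beside 17.5%), in both cases Mdm2, Ccng1, Phlda3, Trp53inp1, Zmat3 and Aen. None was called lower, beside 2.47% and 1.89%. Phlda3 and Zmat3 had passed the filter only through the STZ-exposed groups. With only Con and A10-FMT in the fit, 8 genes were tested, and Zmat3 no longer passed the filter. Of these, 5 were called higher and 1 lower, the latter being Cdkn1a. In that fit 2852 of all 10229 genes were called higher and 503 lower. Upward non-overlap with the 3 Con livers was seen in 6 of 9 genes with A10-FMT (41.7% of all genes) and in 7 of 9 with Con-FMT (40.7%). Under median-ratio scaling 3 remained called in A10-FMT (Phlda3, Aen and Ccng1) and 4 in Con-FMT (Phlda3, Zmat3, Aen and Ccng1). That scaling moved the calls over all genes from 1691 higher and 262 lower to 665 and 490 in A10-FMT, and from 1859 and 200 to 519 and 347 in Con-FMT. Cdkn1a was lower in all 3 A10-FMT livers than in Con, with a log2 difference of -1.003 (SE 0.36), as were 7.17% of all genes. In Con-FMT its difference from Con was 0.03.

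The transplant groups themselves were compared, since both received a transplant and only the donors of A10-FMT had been dosed with AOS. The paper describes the donor material of each group as pooled. Donor treatment therefore cannot be told apart from any other difference between the pools. No gene was called in limma (0.0% of all genes, 0 of the 9), and 303 genes had an unadjusted p under 0.05. Cdkn1a, Ccng1, Phlda3 and Aen were lower in all 3 A10-FMT livers than in all 3 Con-FMT livers, as were 5.98% of all genes. The differences were -1.03 for Cdkn1a (SE 0.36), -0.22 for Ccng1 (SE 0.11), -0.51 for Phlda3 (SE 0.19) and -0.29 for Aen (SE 0.10). Mdm2 differed by -0.08 (SE 0.083), and its values overlapped.

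AOS given directly was compared in mice without and with STZ. Without STZ, 0 of the 10 genes were called in limma, beside 0.00924% of all genes (1 of 10822, with 781 at an unadjusted p under 0.05). Trp53inp1 was higher in all 3 AOS livers than in Con, with a log2 difference of 0.71 (SE 0.55), as were 19.1% of all genes. Bax was lower in all 3, with a difference of -0.19 (SE 0.15), as were 5.24%. With STZ, 0 of the 10 were called in limma, beside 0.0% of all genes (657 at an unadjusted p under 0.05). Without the third STZ+AOS mouse 1 gene was called, which was not one of the 10, and 577 had an unadjusted p under 0.05. Ccng1, Zmat3 and Aen were higher in all 3 STZ+AOS livers than in all 3 STZ livers, as were 4.08% of all genes, and the differences were 0.43 (SE 0.13), 0.34 (SE 0.093) and 0.41 (SE 0.11). All 10 estimates were above 0 with the third STZ+AOS mouse. Without it Ccng1 was at 0.45, Aen at 0.39 and Zmat3 at 0.25, Trp53inp1 went from 0.94 to -0.05, Cdkn1a from 0.65 to -0.14 and Mdm2 from 0.16 to -0.0082. Eda2r went from 0.53 to 0.38, Bbc3 from 0.43 to 0.24, Phlda3 from 0.35 to 0.46 and Bax from 0.22 to 0.02. The difference between the AOS effects with and without STZ called 0 genes in limma (0.0%, 584 at an unadjusted p under 0.05), and without the third STZ+AOS mouse 0, with 637.

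p53 itself is regulated mainly at the protein level, and its transcript Trp53 had a mean of 13.4 ± 0.871 RPKM in Con and 13.5 ± 2.49 in STZ (SD, n = 3 each). The means of the transplanted mice were 13.7 ± 1.37 for A10-FMT and 15.01 ± 3.09 for Con-FMT. The log2 difference of STZ from Con was -0.0032 (SE 0.15, limma adjusted p = 0.990). Mdm4, which encodes the Mdm2 partner that masks the p53 activation domain, was at 6.73 ± 0.637 RPKM in Con and 8.80 ± 2.02 in STZ, a difference of 0.32 (adjusted p = 0.0789). Neither passed the test in any other comparison. The genes around these were taken from 7 lists of p53 pathway genes outside the 10, with 126 genes in the table and 96 tested. In STZ against Con, 41 of the 96 were called higher and 4 lower, 51 did not pass, beside 33.0% and 5.52% of all genes, and their median log2 difference was 0.32 against 0.21 for all genes. Under median-ratio scaling 23 were higher and 8 lower, and under quantile normalization 23 and 9.

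Of p53 and its regulators, 8 of 16 were called higher with STZ and none lower, but under median-ratio scaling only Trim24 was called higher and Kat5 was called lower. Trim24, which encodes a ubiquitin ligase of p53, rose by 1.77 (adjusted p = 0.00404), from 2.44 ± 0.176 RPKM in Con to 11.9 ± 6.02 in STZ, and it kept its call under both rescalings. Usp7, which encodes a deubiquitinase of p53 and Mdm2, was 0.42 higher (adjusted p = 0.00659), a call that was lost under both. Of the other targets in arrest and repair, 10 of 16 rose and none fell (6 and 0 under median-ratio scaling). Plk3, a stress-responsive kinase gene, rose by 1.86 (adjusted p = 0.00102), from 9.70 ± 1.68 to 38.8 ± 11.99 RPKM. Polk, the gene of a translesion DNA polymerase, rose by 0.64 (adjusted p = 0.000909), from 0.853 ± 0.0709 to 1.89 ± 0.0794 RPKM. Of the other targets in metabolism and secretion, 10 of 15 rose and none fell (8 and 0 under that scaling). Lpin1, which encodes a phosphatidate phosphatase, rose by 3.17 (adjusted p = 0.000342), from 5.12 ± 0.874 to 54.8 ± 13.6 RPKM, and Abhd4, a lipase gene, by 0.89 (adjusted p = 0.000471). Each list also contains genes with regulators other than p53, and p53 binding was not measured here.

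Of the other targets in cell death, 1 of 9 rose, Ei24 (0.72, adjusted p = 0.00217), and 1 fell, Perp (-0.42, adjusted p = 0.00808), which encodes a membrane protein of desmosomes. Of the other Bcl-2 family genes, 4 of 11 rose and 3 fell (2 and 3 under median-ratio scaling). Mcl1, which protects cells from apoptosis, rose by 1.07 (adjusted p = 0.000471), from 22.7 ± 0.871 to 49.4 ± 9.90 RPKM. Bcl2l11, the gene of the death activator Bim, rose by 0.84 (adjusted p = 0.00590), a call lost with all 6 groups in the fit. Bak1, a pore-forming relative of Bax, fell by 0.48 (adjusted p = 0.00584) and Bok by 0.62 (adjusted p = 0.00635). Of the cell cycle partners of p21, 8 of 14 rose and none fell (5 and 0 under median-ratio scaling), including Rbl2, which encodes the pocket protein p130 of quiescent cells (0.87, adjusted p = 0.000608), and Pcna, the replication clamp (0.64, adjusted p = 0.00214). Of 17 genes of alkylation and base excision repair, only Ung, the uracil glycosylase gene, rose (1.02, adjusted p = 0.00916), from 1.37 ± 0.370 to 3.97 ± 1.77 RPKM, and none fell (1 and 3 under median-ratio scaling).

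**Figure D4:**
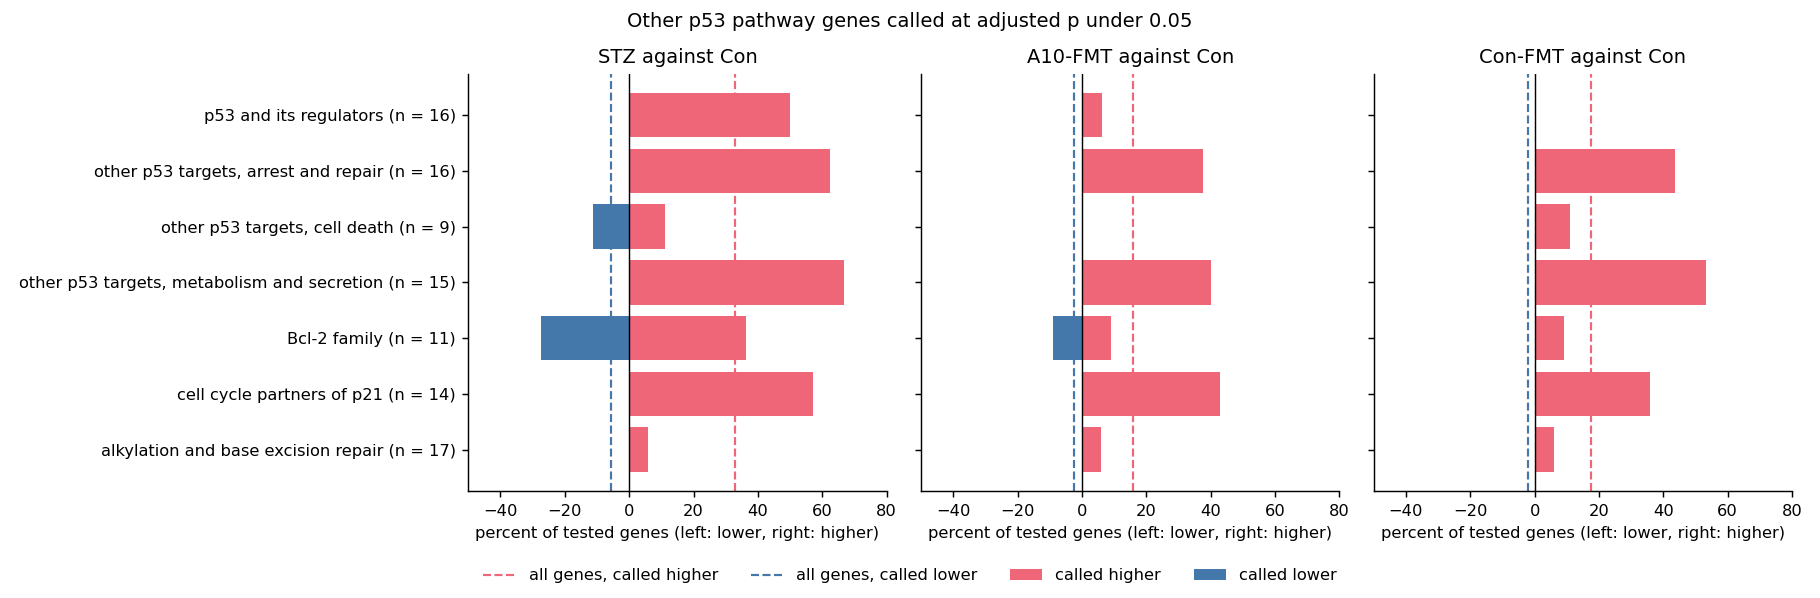
Percent of the tested genes of each list outside the 10 that were called higher (right, red) or lower (left, blue) than in Con, 1 panel for each of the 3 groups shown, with the shares of all 10602 genes as dashed lines. For STZ, metabolism and secretion (10 of 15) and arrest and repair (10 of 16) have the largest shares called higher, and alkylation and base excision repair the smallest (1 of 17).

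Against Con, the transplant groups were compared for the same pathway genes, with 20 higher and 1 lower after A10-FMT, and 22 higher and none lower after Con-FMT, of 96 tested, beside 15.9% and 17.5% of all genes called higher. Under median-ratio scaling the counts were 15 and 2, and 14 and 2. The list of regulators had 1 of 16 called higher in A10-FMT, Trim24 (1.27, adjusted p = 0.0343, lost under both rescalings), and 0 of 16 in Con-FMT. In arrest and repair, 6 of 16 were higher in A10-FMT and 7 in Con-FMT, with Plk3 at 1.77 and 1.34 (adjusted p = 0.00322 and 0.0112). In metabolism and secretion, 6 of 15 were higher in A10-FMT and 8 in Con-FMT. Ephx1, which encodes microsomal epoxide hydrolase, was 1.25 higher in A10-FMT (adjusted p = 0.00113), at 527 ± 16.8 RPKM against 223 ± 33.0 in Con. Gls2, the liver-type glutaminase gene, was 1.44 higher in Con-FMT (adjusted p = 0.00177), at 325 ± 101 RPKM against 116 ± 15.3. Both genes were also called higher than Con in the other transplant group and in STZ. Ephx1 was at 491 ± 70.9 RPKM in Con-FMT and 512 ± 67.3 in STZ, and Gls2 at 292 ± 23.7 in A10-FMT and 334 ± 20.2 in STZ. Among cell death targets, 0 of 9 and 1 of 9 (Ei24, 0.68, adjusted p = 0.00818) were higher. Among the Bcl-2 family, Mcl1 was called higher in both (0.44 and 0.41, adjusted p = 0.0414 and 0.0488), and both calls were lost under either rescaling, with the replicate number as a block and with all 6 groups in the fit. Bok was lower in A10-FMT (-0.58, adjusted p = 0.0188). Among cell cycle partners of p21, 6 of 14 and 5 of 14 were higher, and cyclin D1 (Ccnd1) was at 16.2 ± 4.75 RPKM in A10-FMT against 2.46 ± 1.05 in Con (2.32, adjusted p = 0.00397). Ccnd1 was also called higher than Con in STZ (2.15, adjusted p = 0.00232) and in Con-FMT, at 14.95 ± 7.77 and 11.1 ± 5.01 RPKM. Between A10-FMT and STZ it differed by 0.18 (adjusted p = 0.821). In alkylation and base excision repair, 1 of 17 was higher in each transplant group, Mgmt, whose product removes alkyl groups from guanine. It was at 23.1 ± 2.21 RPKM after A10-FMT, 23.0 ± 3.20 after Con-FMT and 9.42 ± 2.84 in Con (1.24 and 1.23, adjusted p = 0.00735 and 0.00854). In STZ, Mgmt was at 14.6 ± 4.64 RPKM, 0.57 above Con (adjusted p = 0.0734). The transplant groups were 0.67 and 0.66 above STZ, and neither was called (adjusted p = 0.152 and 0.161).

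None of the 96 pathway genes was called by limma between either transplant group and STZ, or between the transplant groups. In each comparison with STZ, 23 had an unadjusted p under 0.05 in limma. Over all 10602 genes, 2212 did so for A10-FMT and 2131 for Con-FMT. Between the transplant groups 4 of the 96 did, beside 303 over all genes. Without the third STZ mouse, 18 pathway genes were called against STZ in A10-FMT mice, beside 1343 of 10580 over all genes. In Con-FMT mice 20 were called, beside 1636 of 10580. None of 99 was called for AOS against Con or STZ+AOS against STZ. At an unadjusted p under 0.05 in limma there were 10 and 6, beside 781 and 657 of 10822 genes.

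The profiles of Mdm2 and Cdkn1a over the 18 livers were set beside those of 4451 genes, each centred on its mean and divided by its SD. The genes closest to Mdm2 were Grina, with a root mean square difference of 0.283 SD, Zmat3 with 0.286 SD and Pptc7 with 0.322 SD. Those closest to Cdkn1a were 1700017B05Rik with 0.331 SD, Fem1c with 0.371 SD and Kif5b with 0.412 SD. Of these, Zmat3 is another of the 10 genes. Without the third STZ+AOS mouse, a check added after the values were seen, the closest of 3861 genes were Pptc7 (0.322 SD), Fam53b (0.327 SD) and Eif4ebp3 (0.331 SD) for Mdm2. For Cdkn1a they were 1700017B05Rik (0.464 SD), Abtb2 (0.570 SD) and Tnfaip3 (0.575 SD). The points share libraries.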

How the data were processed

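RNA was extracted from whole liver of 18 mice, 3 per group. The submitters' processing notes name Bowtie 0.12.2 and mm10, whereas the methods of the study name SOAPaligner. The authors deposited 1 table of RPKM values, normalized by them to transcript length and mapped reads, with 2 decimals. Total read numbers per library were not used, so depth is given as genes detected. The 10 members, the gene lists and the tests were chosen with earlier results of these data known. Of the 19057 rows, 3 symbols were repeated and 26 looked like dates.

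Values were taken as log2(RPKM + 1), with genes kept at 1 RPKM or more in at least 3 fitted libraries, and group means were compared in R 4.3.3 by two-sided tests of the limma package, version 3.58.1, with moderated variances that follow the mean level (eBayes, trend). p-values measure the spread between mice, as the study describes them, and the Benjamini-Hochberg adjustment ran over every gene kept. On simulated data of 10482 genes for STZ against Con, 195 of 200 changed genes were recovered with 11 false calls. That recovery holds only for the changes that were simulated. It is not an estimate of the sensitivity for the p53 target genes, for smaller differences or for genes near 1 RPKM.

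Named genes were the 10 members, Trp53, Mdm4, per list and comparison at most 2 higher and 2 lower called genes with the smallest adjusted p, and for Mdm2 and Cdkn1a the 3 genes with the closest profile (SD of at least 0.25). Alternatives were median-ratio scaling, quantile normalization, a pseudocount of 0.1, no filter, at least 1 RPKM in every library, no trend, other sets of groups in the fit, a replicate block and each mouse left out. Gene positions are from GENCODE M21 (GRCm38), promoters from RefSeq (GRCm38.p6). Tables and plots were made with pandas 2.3.3 and matplotlib 3.10.9 in Python 3.11.15.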

Additional observations from a re-analysis of the deposited data

Results flagged for a closer look

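The estimates for Phlda3 had opposite signs with AOS in mice without and with STZ. The log2 difference was -0.12 for AOS against Con and 0.35 for STZ+AOS against STZ (SE 0.19 each), which are 0.46 apart. Those for Bax did so as well, with -0.19 and 0.22 (SE 0.15 each), which are 0.41 apart. With SEs of this size the directions are not established. For both genes all 3 AOS livers were below the Con mean and all 3 STZ+AOS livers above the STZ mean. For Phlda3, however, the highest AOS liver was at 0.23 RPKM beside a Con mean of 0.233, a gap finer than the deposited values resolve. In the fit of this difference across 10822 genes, limma called none, and 584 had an unadjusted p under 0.05. Without the third STZ+AOS mouse, STZ+AOS against STZ was 0.46 for Phlda3 and 0.02 for Bax.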

How the results depend on the processing

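Over 1255 alternative values of the log2 differences of the 10 genes, 1203 moved by less than the spread between mice, 52 moved by more and 0 called differences changed sign. The number of the 10 genes called in A10-FMT against Con was 3 under median-ratio scaling and 3 under quantile normalization. For the other pathway genes, 34 were called in A10-FMT against Con when only these groups were fitted, 1 in A10-FMT against STZ with all 6 groups in the fit, and 1 in Con-FMT against STZ under either scaling. Leaving out each mouse in turn, the 10 genes gave 6 to 7 calls in STZ against Con, 4 to 5 in A10-FMT against Con, 5 to 6 in Con-FMT against Con, 0 to 2 in A10-FMT against STZ and 0 to 1 in Con-FMT against STZ. The other pathway genes gave 32 to 55, 13 to 16, 13 to 21, 0 to 18 and 0 to 20, with the upper end of the last 2 reached without the third STZ mouse. The cause of these shifts was not tested.

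Over all genes, calls in STZ against Con were 2651 when only those groups were fitted. Calls in A10-FMT against STZ ranged from 1 to 77 by setting, and were 1343 without the third STZ mouse. Calls in Con-FMT against STZ ranged from 0 to 73, and were 1636 without that mouse. Calls in A10-FMT against Con were 1155 under median-ratio scaling, 1109 under quantile normalization and 3355 with only those groups, and in Con-FMT against Con 866 and 824 under the scalings. With each mouse left out in turn they ran from 547 to 1468 in A10-FMT against Con (lowest without the first Con mouse), from 603 to 2096 in Con-FMT against Con (lowest without the first Con-FMT mouse) and from 2562 to 5012 in STZ against Con (lowest without the first Con mouse), so the shares of all genes given beside the counts move as well. Calls in AOS against Con ranged from 0 to 41. Without a filter, 6 genes were called in STZ+AOS against STZ and 3 in the difference of the AOS effects.

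The mouse numbers were not taken to pair the livers. Over 45 pairs of mice with the same number, the correlation of their deviations from the group means ran from -0.25 to 0.47 with a median of 0.03, 16 of them were over 0.1, and 9 of 18 mice, not all, correlated best with their own number. With the number as a replicate block, 6 of the 10 genes were called in STZ against Con and 3714 of all genes, 6 in A10-FMT against Con, and 5 in Con-FMT against Con, where Trp53inp1 was lost. Phlda3, Zmat3 and Eda2r were below 1 RPKM in every liver without STZ, where the log2(RPKM + 1) scale understates differences. Reads per gene were not counted, and 3 mice per group limit every test.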
